A study of Canis lupus familiaris with 51 samples.

Results

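The genes described here are 10 regulators of mitosis, BUB1, BUB1B, MAD2L1, TTK, AURKA, AURKB, PLK1, NEK2, CDCA8 and INCENP, measured across 51 canine cutaneous mast cell tumors (MCTs), 1 tumor per array. They were chosen by name. Descriptions with words such as associated, similar or -like were passed over, so some probes of these genes may have been missed. A probe belonged to a gene when the array annotation gave the gene symbol as its name (12 probes, 9 genes). Descriptions that held the symbol added 2 probes, among them the only BUB1 probe found. This gave 14 of the 43603 probes on the array and at least 1 probe for each of the 10 genes. All tumors were spontaneous, were removed from client-owned dogs of many breeds aged 3 to 14 years (49 with an age given), and were sampled at the center of the mass, so that RNA of other cells of the skin was included. The reference samples were 5 undifferentiated MCTs (T9, T57, T73, T90 and LM0) and 13 differentiated MCTs, classified by histological grade and mitotic index. The other 33 tumors carry the class that the study predicted from the same arrays, 7 undifferentiated and 26 differentiated. Sample LM0 was matched to its class by elimination, since its name in the labels differs from that in the study.

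In mitosis the spindle checkpoint delays the separation of sister chromatids until every kinetochore is held by spindle fibers. TTK starts the signal at the kinetochore, BUB1 and BUB1B are recruited there, and MAD2L1 together with BUB1B holds CDC20, the activator of the anaphase-promoting complex. AURKA and PLK1 are kinases of the centrosome and of mitotic entry, NEK2 separates the centrosomes, and AURKB forms the chromosomal passenger complex with INCENP, CDCA8 (borealin) and survivin. Transcripts of most of these genes are made in G2 and M phase, so their level in a tumor is known to follow the share of dividing cells. In RNA of whole tumor pieces, a larger share of dividing cells and more RNA per cell cannot be told apart.

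Because the undifferentiated reference tumors were chosen in part by their mitotic index, which counts dividing cells under the microscope, the comparison of reference samples is not independent of mitosis. The markers from which the other tumors were classified included CDCA8. The classes of those 33 tumors are therefore described without a test.

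Probes are single strands of 60 bases, and 6 of the 14 are shown because the results turn on them: 3 windows of NEK2 that can be checked against each other, the probe of TTK, which had the largest change among the brightest probes, the second AURKB probe, and the probe of CDCA8, which changed least. All 6 have at least 1 reading frame without a stop codon. The array annotation gives positions without naming a genome build, and whether a probe lies in coding or untranslated sequence was not analysed here. NEK2 probe A_11_P0000024938 lies at chr7:13000235-13000294, A_11_P098721 at chr7:13003765-13003824 and A_11_P188043 at chr7:13007122-13007856, all on the minus strand, where the last spreads its bases over 735 positions and so joins separate stretches of the genome. TTK is at chr12:43958883-43958942 on the plus strand, AURKB probe A_11_P0000024477 at chr5:36009004-36009624 and CDCA8 at chr15:7819497-7819556, both on the minus strand. All bases are in lower case, since no part of a probe was singled out.
NEK2, A_11_P0000024938: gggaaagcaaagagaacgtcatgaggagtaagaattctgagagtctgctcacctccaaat
NEK2, A_11_P098721: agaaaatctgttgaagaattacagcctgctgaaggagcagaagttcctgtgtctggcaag
NEK2, A_11_P188043: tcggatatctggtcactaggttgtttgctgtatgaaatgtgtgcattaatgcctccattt
TTK, A_11_P0000026464: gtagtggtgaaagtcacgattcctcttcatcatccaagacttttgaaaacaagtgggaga
AURKB, A_11_P0000024477: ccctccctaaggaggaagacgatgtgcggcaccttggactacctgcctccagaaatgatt
CDCA8, A_11_P213513: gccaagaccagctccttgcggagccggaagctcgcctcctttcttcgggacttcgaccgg

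Between 59.4% and 74.8% of the spots were well above background per array, with 62.2% to 70.4% in the undifferentiated and 66.6% to 72.6% in the differentiated reference samples. No member spot was saturated. The arrays came from 15 slides scanned in 9 sessions. Of the mast cell markers, 4 of 9 had a named probe (KIT, MS4A2, FCER1A and CMA1); their mean log2 level was 14.35 to 16.65 in the undifferentiated and 14.78 to 15.79 in the differentiated reference samples, and 0 of 4 changed.

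Of the 10 genes, 9 were up-regulated in undifferentiated MCTs, from 2.03-fold for INCENP to 10.0-fold for TTK. The exception was CDCA8, for which the naming rule found a single probe. With SAM, the test the study used, written anew here with missing values filled by the probe mean, neither AURKB probe was called. Both probes lacked undifferentiated values, T90 for the first and LM0 and T90 for the second. The study filled missing values with other software, and the effect of the filling on these calls was not tested. The sizes depended on the background correction: with normexp on the unprocessed signals the log2 change fell from 3.33 to 1.98 for TTK, from 2.97 to 1.54 for NEK2, from 2.86 to 2.03 for BUB1B and from 1.02 to 0.95 for INCENP, the last below the fold limit. Levels are log2 normalized intensities, changes are differences of log2 means with the standard error (SE) of the limma fit, and the limits for a call were 0.01 for the adjusted p and 2 for the fold, in either direction. Of the 14 probes, 12 were called, all higher in undifferentiated tumors, while 1.8% of the 43580 probes tested were called in either direction and 0.939% as higher. The median log2 change was 2.01 over the 14 probes and 0.03 over all probes. In 13 of the 14 probes every undifferentiated reference tumor with a value lay above every differentiated one, which held for 0.998% of all probes.

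BUB1, a checkpoint kinase of the kinetochore, had a log2 level of 12.78 in LM0, 11.83 in T90, 11.46 in T57, 11.14 in T73 and 11.03 in T9. The 13 differentiated reference samples ranged from 8.6 in T62 over a median of 9.47 to 10.09 in T84. The classes were 0.95 log2 units apart at their closest, and LM0 stood highest of all 51 tumors. The change was 2.22 ± 0.27 (SE, n = 5 and 13), or 4.67-fold, with a limma adjusted p of 0.000107. BUB1B, the checkpoint protein that binds CDC20 together with MAD2L1, lay at 10.34 in LM0, 9.95 in T90, 9.79 in T9, 9.74 in T57 and 8.82 in T73. Its differentiated reference levels were 5.3 to 8.25 with a median of 6.71, a wider spread (SD 0.8) than for BUB1 (SD 0.44). BUB1B rose by 2.86 ± 0.38, or 7.28-fold (limma adjusted p = 0.000246), without overlap of the classes.

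MAD2L1, the checkpoint protein that closes around CDC20, was measured at 10.51 in T9, 9.88 in LM0, 9.77 in T90, 9.73 in T57 and 9.1 in T73. Differentiated reference samples held 6.98 to 8.6 with a median of 7.81, so that the lowest undifferentiated tumor was 0.49 above the highest differentiated one. The difference was 2.02 ± 0.23, or 4.05-fold (limma adjusted p = 8.43e-05). TTK, the kinase that starts the checkpoint signal, reached 9.53 in T9, 9.35 in LM0, 8.8 in T90, 8.78 in T57 and 8.62 in T73. Among differentiated reference samples it spread from 3.85 in T100, where it was not well above background, over a median of 5.83 to 7.7 in T84. The undifferentiated tumors thus sat within 0.92 log2 units of each other and the differentiated ones within 3.85. TTK rose by 3.33 ± 0.48, or 10.0-fold, with a limma adjusted p of 0.000454.

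**Figure D1:**
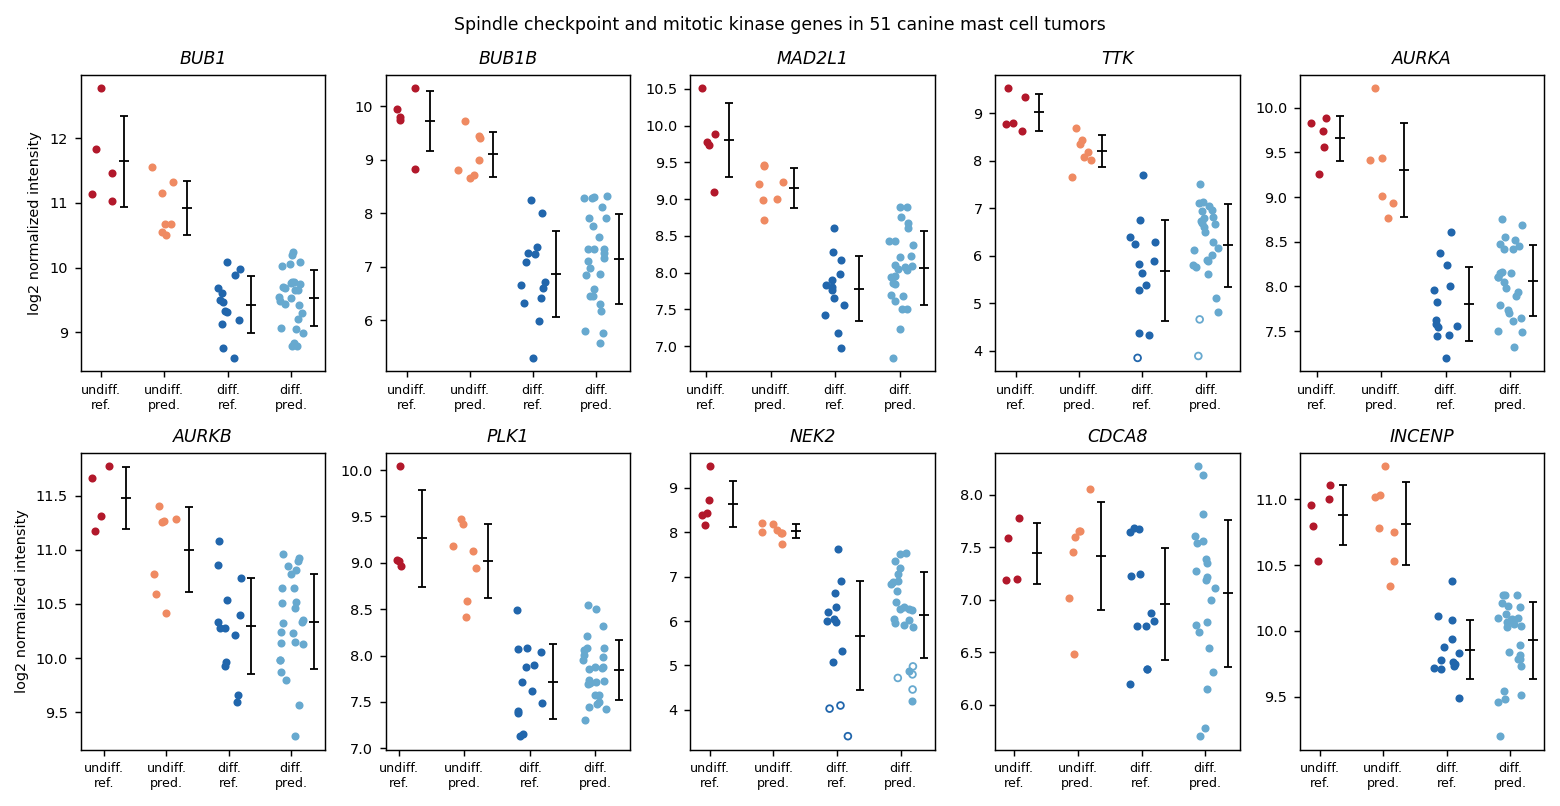
Log2 normalized intensity of the brightest probe of each of the 10 genes in every tumor, by class (undifferentiated and differentiated, reference and predicted). Points are tumors, open circles are arrays where the probe was not well above background, and black bars are the mean ± SD; the undifferentiated reference tumors lie above all differentiated reference tumors for each gene but CDCA8.

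Among the kinases of the centrosome and of mitotic entry, AURKA was read by 2 probes. The brighter one gave 9.89 in LM0, 9.83 in T9, 9.74 in T57, 9.56 in T90 and 9.26 in T73 against 7.2 to 8.61 (median 7.62) in differentiated reference samples. The other gave 7.12 to 7.98 against 4.73 to 6.03. Both separated the classes, with changes of 1.85 ± 0.2 (3.61-fold, limma adjusted p = 5.07e-05) and 2.0 ± 0.19 (4-fold, limma adjusted p = 2.23e-05). A further probe, described in the annotation as Aurora-2 and thus outside the naming rule, rose by 1.36 ± 0.17. PLK1, the polo-like kinase that drives entry into and exit from mitosis, stood at 10.04 in T57, 9.03 in T9, 9.02 in T73 and 8.96 in T90, while the spot of LM0 was flagged and left out. The differentiated reference samples had PLK1 levels of 7.13 to 8.49 with a median of 7.71. That is a difference of 1.55 ± 0.24 (n = 4 and 13), or 2.92-fold (limma adjusted p = 0.00107).

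NEK2, the kinase that separates the centrosomes, gave 9.48 in LM0, 8.73 in T9, 8.42 in T90, 8.38 in T73 and 8.17 in T57 with its brightest probe. In the differentiated reference samples it ranged from 3.41 in T100 over a median of 6.01 to 7.62 in T84, and it was well above background in 10 of 13. The probe rose by 2.97 ± 0.55, or 7.83-fold (limma adjusted p = 0.00323), but missed the threshold without LM0 (2.76, limma adjusted p = 0.0139) and with the scan session as a block (3.24, limma adjusted p = 0.0215). The dimmest NEK2 window rose by 3.23 ± 0.57 (limma adjusted p = 0.00215) and was well above background in 7 of 13 differentiated reference samples. Its change was 2.29 with values not well above background left out, and with normexp it was 0.95 and no longer called. The remaining window, with flagged spots in 2 undifferentiated and 2 differentiated reference samples, gave 3.04 ± 0.71 and was not called (limma adjusted p = 0.0196). It was called with flagged spots kept (2.75, limma adjusted p = 0.00416).

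Of the 3 genes of the chromosomal passenger complex, AURKB, its kinase, had levels of 11.77 in LM0, 11.66 in T9, 11.31 in T73 and 11.17 in T57, with the spot of T90 flagged. Differentiated reference samples lay at 9.6 to 11.08 with a median of 10.28, and the nearest tumors of both classes were 0.08 apart. AURKB rose by 1.18 ± 0.23 (n = 4 and 13), or 2.26-fold, with a limma adjusted p of 0.00563. The second AURKB probe rose by 1.26 ± 0.25 (n = 3 and 13; limma adjusted p = 0.00725). With flagged spots left out, the AURKB calls were close to the threshold. The limma adjusted p of the first probe was 0.021 without T9, 0.0119 without T73 and 0.0263 without LM0. It was 0.038 with the scan session as a block. The second probe missed the threshold without any 1 of 10 reference samples (T9, T50, T55, T57, T62, T64, T73, T84, T101 or T131), with a limma adjusted p of 0.0103 to 0.0437. It also missed it with the scan session as a block (limma adjusted p = 0.0203) and with normexp (0.88, below the fold limit). The same held with 75th percentile centring (limma adjusted p = 0.0103) and with sex (0.0114) or age (0.0105) as a covariate. Neither AURKB probe was called with the slide as a fixed block. With flagged spots kept both were called (1.18, limma adjusted p = 0.00219, and 1.36, limma adjusted p = 0.000593). The authors' normalized intensities also gave both calls (limma adjusted p = 0.0023 and 0.00062). INCENP, the scaffold of the complex, was at 11.11 in T57, 11.0 in T73, 10.96 in T90, 10.8 in T9 and 10.53 in LM0 against 9.49 to 10.38 (median 9.78). Its change of 1.02 ± 0.12, or 2.03-fold (limma adjusted p = 0.000123), was the smallest of those called and lay at the fold limit; it fell below that limit without T57 (0.96), T73 (0.99) or T62 (0.99) and with normexp (0.95).

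CDCA8, the borealin subunit, had a single probe by the naming rule, with which the classes overlapped. Whether the array holds further CDCA8 probes was not settled, since descriptions with the word associated were passed over. The study took CDCA8 as a marker of the classes, and how well this probe reports the CDCA8 transcript was not tested. The probe had levels of 7.78 in T73, 7.59 in T57, 7.2 in LM0 and 7.19 in T9 (T90 was flagged). It had 6.2 to 7.68 with a median of 6.84 in 12 differentiated reference samples. The difference was 0.48 ± 0.27 with a 95% interval of -0.1 to 1.06 (limma adjusted p = 0.318), so neither no change nor a change of about the size of INCENP was left out by the interval. Across all alternatives it stayed between 0.27 and 0.78 and was never called. The spot was flagged on 7 of the 51 arrays, 1 of them undifferentiated.

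**Figure D2:**
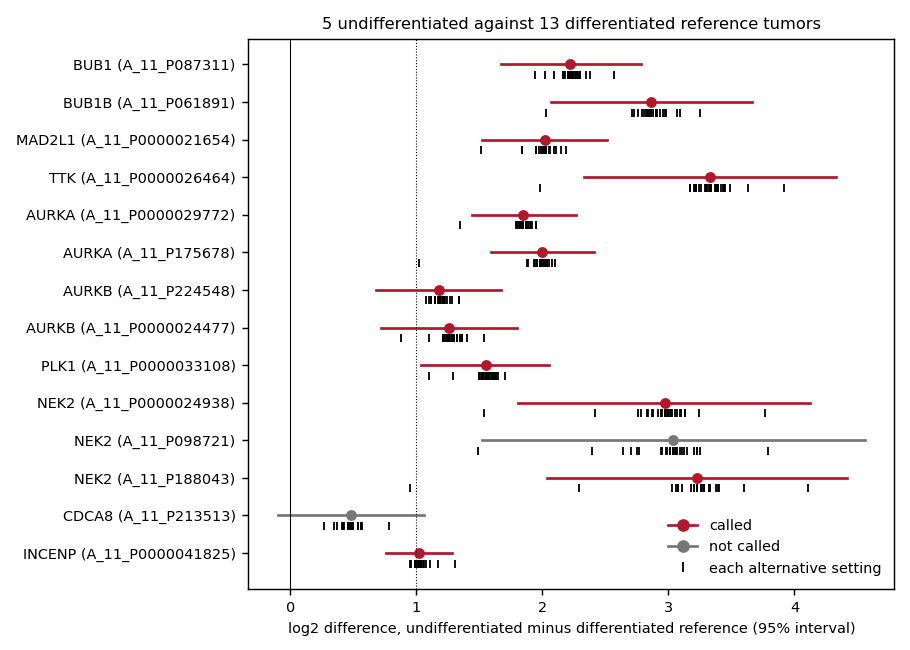
Log2 difference of each of the 14 probes, undifferentiated minus differentiated reference samples, with the 95% interval of the limma fit (horizontal axis, 1 unit is a factor of 2; dotted line at the fold limit). Ticks under each probe mark the values under the alternative settings. All lie above 0, and the CDCA8 probe is the only probe whose interval includes 0.

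Scan sessions and slides were set against these changes. Of the 9 sessions, 4 held both reference classes, with 1 undifferentiated tumor in each. Within those sessions every member probe that could be compared was higher in the undifferentiated tumor: by 1.7 to 2.33 for BUB1, 2.87 to 3.38 for BUB1B, 2.9 to 5.2 for TTK, 0.96 to 2.49 for PLK1 and 0.96 to 1.39 for INCENP (4 sessions each), 1.05 to 1.73 for AURKB (3 sessions) and 0.33 to 0.78 for CDCA8 (2 sessions). With the session as a block 9 of 14 probes were called, while 0.695% of all probes were; both AURKB probes and the brightest NEK2 probe lost their call. Only 2 slides held both classes. With the slide as a fixed block 2 of 14 probes were called (BUB1 and the brighter AURKA probe), beside 0.133% of all probes. The estimates in that fit were 1.84 for MAD2L1, 3.25 for BUB1B and 3.92 for TTK.

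In the 33 tumors with a predicted class, the same genes had the same direction. The mean of the 7 predicted undifferentiated tumors exceeded that of the 26 predicted differentiated ones by 1.39 for BUB1, 1.96 for BUB1B, 1.98 for TTK and 0.36 for CDCA8. For all 14 probes the predicted undifferentiated tumors had a lower mean than the undifferentiated reference tumors (by 0.73 for BUB1, whose means were 10.92 and 11.65) and the predicted differentiated tumors a higher mean than the differentiated reference tumors (0.53 higher for TTK, 6.22 against 5.69). Over all tumors with a value, 4 probes kept every undifferentiated tumor above every differentiated one. They were the probes of BUB1 (10.51 in T132 against 10.24 in T58) and BUB1B (8.66 in T132 against 8.33 in T103). The brighter AURKA probe did so too (8.77 in T77 against 8.75 in T103, n = 11 and 38). So did the brightest NEK2 probe (7.73 in T132 against 7.62 in T84, n = 12 and 38). Such a separation held for 0.128% of all probes, and since the classes of the 33 tumors came from these arrays nothing is read from it. For TTK, PLK1, MAD2L1 and INCENP, 1 undifferentiated tumor was at or below the highest differentiated one. For AURKB, 3 of 11 were with the brighter probe and 3 of 10 with the second. With the brighter AURKB probe, 15 of 38 differentiated tumors reached the lowest undifferentiated one. For the CDCA8 probe, 11 of 11 undifferentiated tumors were at or below the highest differentiated one.

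Differentiated tumors were not alike. Over the tumors of the 39 in which the brightest probe was well above background, the highest level was 10.7 times the lowest for NEK2 (31 tumors), 10.3 times for TTK (36 tumors) and 8.17 times for BUB1B, but 3.11 times for BUB1, 2.66 times for PLK1 and 2.28 times for INCENP. T84, a reference sample, was among the 5 highest differentiated tumors in 9 of the 10 genes, with a median rank of 3.5. T62 and T100, also reference samples, were among the 5 lowest in 8 genes each, with median ranks of 37.5 and 35.5. Among undifferentiated tumors T132 and T77 had the lowest level in 6 and 4 of the 14 probes, and LM0 the highest in 7.

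The genes varied together within the differentiated tumors. Over the 45 pairs of genes (brightest probes), the median Pearson's r was 0.52 (median Spearman's rho 0.52) and 43 pairs were positive; 35 pairs had a Benjamini-Hochberg adjusted permutation p under 0.05 over the 45 pairs. TTK and NEK2 were closest, with r = 0.95 and rho = 0.92 over 38 tumors (permutation p = 1e-05, the smallest that 100000 permutations can give; adjusted p = 5e-05), r = 0.94 without the 2 tumors farthest from the median of TTK, and r = 0.91 where only arrays with both probes well above background were kept. BUB1B followed NEK2 (r = 0.88) and BUB1 (r = 0.87) nearly as closely, both with an adjusted permutation p of 5e-05. These 4 genes, of the checkpoint and of centrosome separation, formed the 6 highest pairs, from 0.78 to 0.95.

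At the other end, AURKA and AURKB showed no relation across differentiated tumors (r = 0.0, rho = 0.07, permutation p = 0.982, n = 37), and r was 0.5 between AURKA and NEK2 and 0.6 between AURKB and NEK2. The subsets were unlike: AURKA and AURKB had r = 0.38 in the 13 reference and -0.22 in the 26 predicted tumors, and AURKA and NEK2 0.79 and 0.26, while AURKB and NEK2 had 0.66 and 0.59. With values not well above background left out, AURKA and NEK2 had r = 0.3. The CDCA8 probe had the lowest median r to the other 9 genes (0.23). It followed PLK1 (r = 0.57, rho = 0.58, permutation p = 0.00058, adjusted p = 0.00124, n = 33) and BUB1 (r = 0.37, adjusted permutation p = 0.041). The relation to BUB1 was r = 0.04 with slide means removed and 0.19 with session means removed, while that to PLK1 was 0.6 and 0.53. Between the CDCA8 probe and the other genes of the passenger complex r was 0.25 for AURKB and 0.28 for INCENP, neither past the threshold (adjusted permutation p = 0.182 and 0.133). In the 12 undifferentiated tumors the median r was 0.48 and 12 of 45 pairs passed by Pearson's r and 7 by Spearman's rho, over reference and predicted tumors whose means differed (above), the highest being BUB1 with BUB1B (r = 0.88, rho = 0.84, adjusted permutation p = 0.0045). INCENP had r between -0.22 and 0.12 with the other genes there and 0 of 9 pairs passed; whether this differs from the differentiated tumors (0.28 to 0.63) was not tested. Array quality, taken as the percentage of spots above background, was also set against each gene over the differentiated tumors: r reached 0.41 for BUB1, 0.36 for NEK2 and 0.35 for BUB1B, with adjusted permutation p of 0.084, 0.0871 and 0.0871 over 10 genes, and its part in the correlations was not tested.

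**Figure D3:**
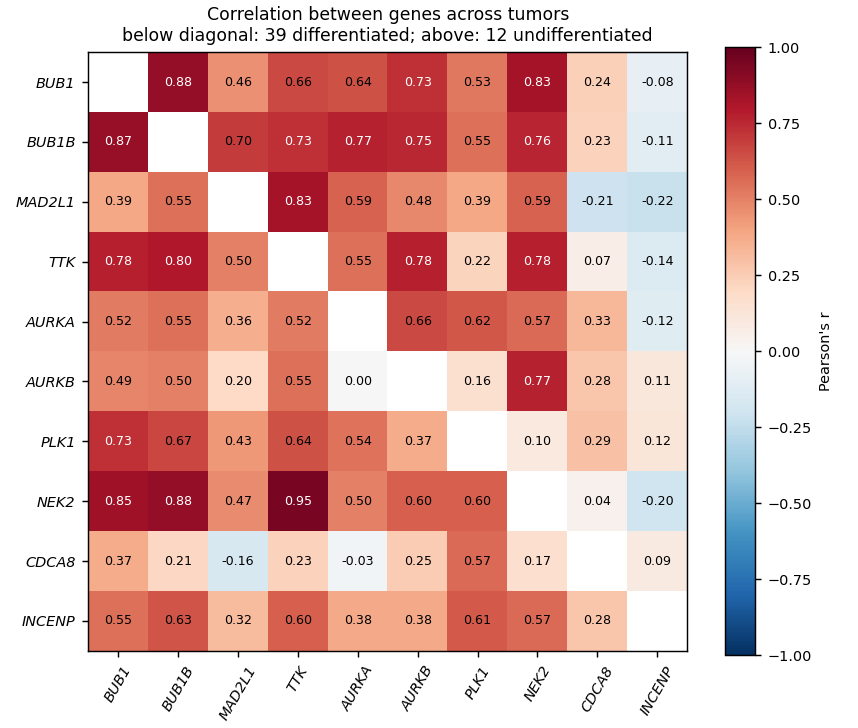
Pearson's r between the brightest probes of the 10 genes, below the diagonal over the 39 differentiated and above it over the 12 undifferentiated tumors. BUB1, BUB1B, TTK and NEK2 form the strongest block below the diagonal (0.78 to 0.95), while CDCA8 is pale against all but PLK1 and INCENP is near 0 above the diagonal.

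Probes of the same gene were also compared with each other. The windows of NEK2 shown above correlated with r of 0.92 to 0.97 over the differentiated tumors, the AURKB probes with 0.93 and the AURKA probes with 0.78. The AURKA probes differed most in the undifferentiated tumor T77. With the brighter probe it had 8.77, above all 38 differentiated tumors with a value. With the other it had 5.75, which 17 of 39 differentiated tumors reached.

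By the same measure, the genes outside the list whose brightest probes were most like the mean of the 10 standardized genes over the differentiated tumors were SPAG5 (r = 0.94), a protein of the mitotic spindle, CDC20 (r = 0.92), the target of the checkpoint, the spindle kinesins KIF15 and KIF11 (r = 0.92 each) and CCNB2 (r = 0.92), a mitotic cyclin. These were the top 5 of 9324 named genes, of which 25 had an r of at least 0.8 and whose median r was -0.02. All 5 were also called higher in undifferentiated reference samples, by 2.51 (KIF15) to 3.28 (KIF11).

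Partner genes of the checkpoint and of the kinases were mixed. Of the checkpoint partners, 2 of 11 measured rose, CASC5, the kinetochore scaffold that binds BUB1 (3.06 ± 0.37, 8.37-fold, limma adjusted p = 0.000112), and CDC20 (3.04 ± 0.36, 8.22-fold, limma adjusted p = 9.13e-05). The other 9 were not called, among them MAD1L1, the partner that recruits MAD2L1 (-0.06 ± 0.21, limma adjusted p = 0.898); CENPE was not well above background on any reference array. The median of this list was 0.6. In the passenger complex and cohesion list 4 of 5 rose with a median of 2.12: BIRC5 (survivin, 2.4 ± 0.36), the histone kinase GSG2 (haspin, 2.33 ± 0.28), separase (ESPL1) and securin (PTTG1). PTTG1 was well above background in 3 of 5 undifferentiated and 0 of 13 differentiated reference samples. With the differentiated samples set to the limit of detection, the fold was 2.06. This is no strict lower limit, since not all undifferentiated values were well above background either. SGOL2, a protector of cohesion, had 0.96 ± 0.25 (limma adjusted p = 0.0261).

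In the list of other mitotic kinases and phosphatases, which also holds the spindle protein TPX2, 6 of 17 genes rose, with a median of 0.47. CDC2, the cyclin-dependent kinase of mitotic entry now named CDK1, had the largest change (3.46 ± 0.46, 11.0-fold, limma adjusted p = 0.000246), followed by the mitotic kinase PBK (2.94 ± 0.36, limma adjusted p = 0.000122). PLK4, TPX2, PKMYT1 and VRK1 were also called. Within the families of the members, PLK1 and PLK4 were called and PLK2 (0.37 ± 0.51) and PLK3 (1.53 ± 0.43, limma adjusted p = 0.0379) were not, and NEK2 was called while NEK1, NEK4, NEK6, NEK7 and NEK9 were not (-0.45 to 0.63; 0.1 ± 0.23 for NEK7). All 3 measured proliferation genes rose, RRM2 (3.51 ± 0.45), TOP2A (3.37 ± 0.49) and PCNA (1.37 ± 0.25). In all, 15 of 36 partner genes were called higher and 0 lower, beside 0.939% of all probes called higher.

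**Figure D4:**
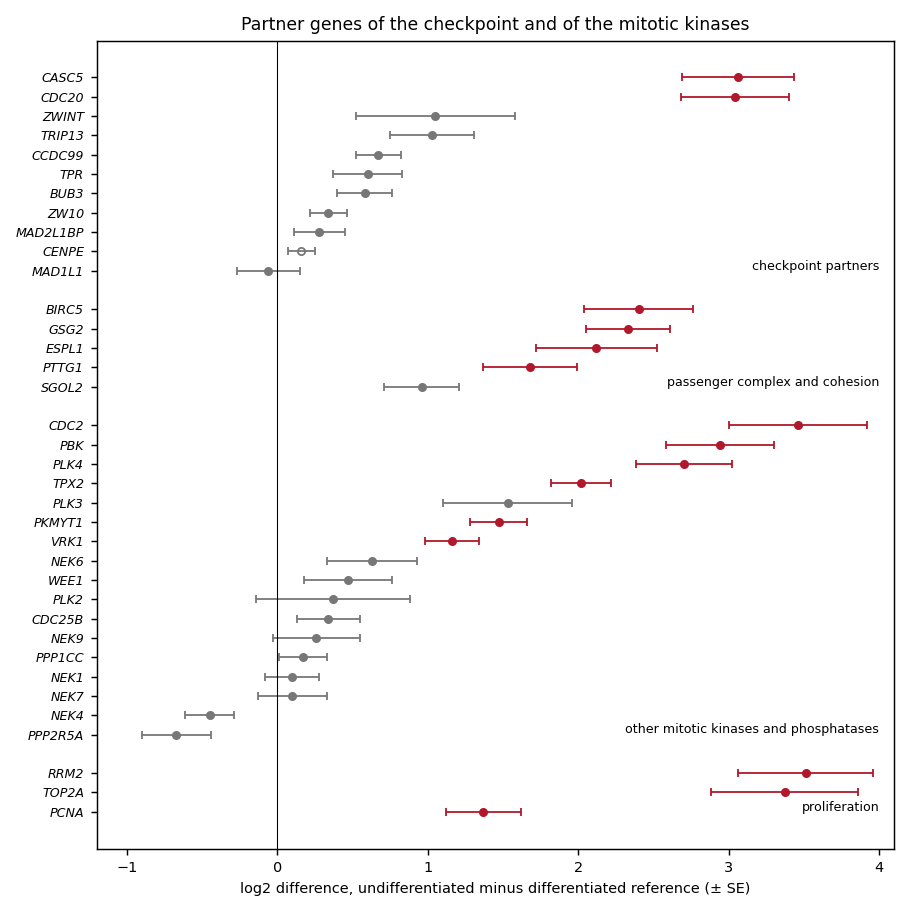
Log2 difference of the partner genes, undifferentiated minus differentiated reference samples, ± SE, grouped by list (brightest probe of each gene; red is called, grey is not called, the open circle is a gene not well above background on any array). The 15 called genes lie between 1.16 and 3.51, and the kinases of the PLK and NEK families other than PLK4 and PLK3 lie below 1.

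Markers of other cells moved with the classes as follows. Of the fibroblast markers 1 of 6 was called lower in undifferentiated tumors, DCN (-1.38 ± 0.2, limma adjusted p = 0.00219), with a list mean of 11.9 to 14.72 in undifferentiated and 12.23 to 15.96 in differentiated reference samples. Of the macrophage markers CSF1R was called lower (-1.92 ± 0.39, limma adjusted p = 0.00651), 1 of 5, with list means of 8.4 to 10.06 and 9.02 to 10.65. The 3 neutrophil markers were higher by 3.11 to 3.19, with list means of 8.38 to 16.92 and 6.41 to 15.25, and the 3 keratinocyte markers lower by 2.06 to 2.38 (means 3.55 to 12.51 and 3.54 to 13.82); none of these 6 was called. Nor was any marker of T cells (2 measured; means 4.87 to 7.13 and 5.37 to 6.94), B cells (4; 5.06 to 6.29 and 5.03 to 6.95) or endothelium (4; 9.28 to 10.54 and 9.68 to 11.12). Of the neutrophil markers, CSF3R (3.11 ± 0.33, limma adjusted p = 0.0231) was higher without overlap of the classes, as 0.998% of all probes were. S100A8 (3.13 ± 1.37) and S100A9 (3.19 ± 1.48) overlapped. The list means skip flagged spots, and the part of these markers in the changes of the mitotic genes was not tested.

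Sex, age and breed were compared as the labels give them. Male dogs had the higher level in 13 of 14 probes over 30 females and 19 males, with female minus male differences of -1.01 ± 0.38 for TTK (means 6.2 and 7.21), -0.9 ± 0.39 for NEK2, -0.83 ± 0.35 for BUB1B and -0.53 ± 0.25 for BUB1. By limma, 8 of 14 probes had an unadjusted p under 0.05, against 6.13% of all probes, and 0 were called after adjustment (lowest adjusted p = 0.814; 0.0252% of all probes were called). The sexes were not evenly spread over the classes: 7 of the 11 undifferentiated tumors with a sex given were from males, against 12 of 38 differentiated ones. With the molecular class in the model the differences were -0.43 for TTK, -0.38 for NEK2, -0.29 for BUB1B and -0.12 for BUB1, and 0 of 14 probes had an unadjusted p under 0.05.

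**Figure D5:**
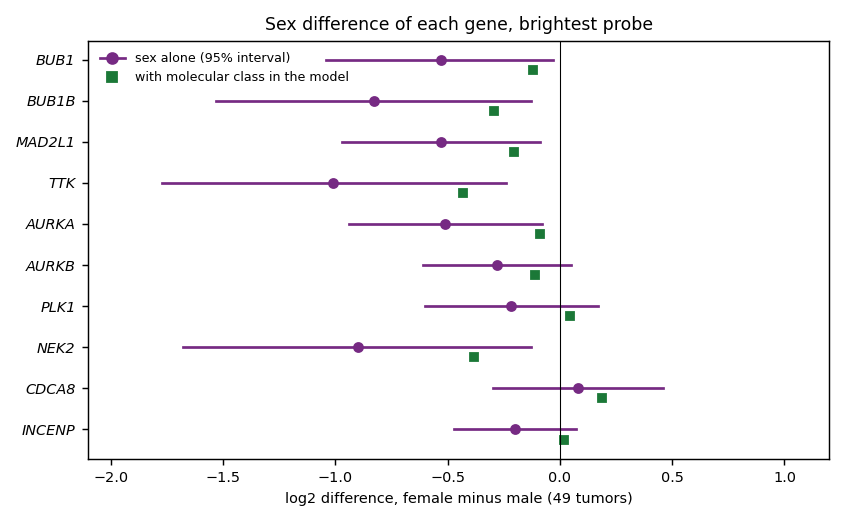
Log2 difference between 30 female and 19 male dogs for the brightest probe of each gene, with the 95% interval of the limma fit for sex alone (circles) and the estimate with the molecular class in the model (squares). With the class included the squares lie nearer to 0 for every gene but CDCA8.

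With age, 0 of 14 probes passed in the 49 tumors (0% of all probes), and 1 of 14 had an unadjusted limma p under 0.05: PLK1 rose by 0.076 ± 0.033 per year (unadjusted p = 0.0265), beside 2.47% of all probes at that limit. With the class in the model none did. Between 9 boxers, 9 Labrador Retrievers and 14 crossbred dogs 0 of 14 passed (0.0505% of all probes did), and the 2 probes with an unadjusted limma p under 0.05 were both of AURKB (unadjusted p = 0.0239 and 0.0359), beside 3.78% of all probes. The brighter one had 10.96 ± 0.28 (SD, n = 8) in boxers, 10.51 ± 0.4 (n = 9) in Labrador Retrievers and 10.4 ± 0.53 (n = 13) in crossbred dogs, with a limma adjusted p that rounds to 1 and, with the class in the model, of 0.694. With the class in the model these 2 probes still had an unadjusted limma p under 0.05 (0.00625 and 0.00412). Each breed held 2 or 3 undifferentiated tumors.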

How the data were processed

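RNA of 51 tumors was labeled with Cy3 and hybridized to Agilent canine arrays. Scans were read by the authors in Agilent Feature Extraction, and the deposited scanner files hold its background-subtracted processed intensity per spot. The authors' own quantile-normalized intensities, also deposited, served as an alternative. Here log2 of the processed intensity was quantile-normalized across all 51 arrays without control spots. Outlier spots by the scanner's flags, 718 to 3291 on an array, were treated as missing, and replicate spots were averaged. No 2 arrays held equal values. Genes were compared with limma 3.58.1 in R 4.3.3 (statmod 1.5.0 for blocks) and adjusted by Benjamini-Hochberg over all probes. Correlations used numpy 2.4.6, pandas 2.3.3 and scipy 1.17.1 in Python 3.11.15, with two-sided permutation tests, and figures matplotlib 3.10.9. The steps were tested on simulated data.

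The molecular classes were taken from the study by tumor case, not from the labels. The members and lists were chosen with earlier results of these data known. Descriptions were matched to symbols as whole words, a detail settled after the descriptions were read. Those with words such as associated, binding, similar, -like, beta or BUB1B were left out, which can also drop probes of a member itself. The brightest probe over the 51 arrays stood for a gene. Partner genes were named by rule: in each list the 2 largest and the smallest change and any called lower; those named beyond it (such as ESPL1, PTTG1, CENPE and the PLK and NEK families) were chosen after their values were seen. Likeness was taken over genes with a RefSeq symbol. Probe positions are those of the array annotation. The number of arrays limits the precision, most for the 5 undifferentiated reference tumors. SAM, the authors' test, was written anew after its description, with 100 permutations and missing values filled with the probe mean. Other alternatives were 75th percentile centring, normexp (offset 50), flagged spots kept, a filter on dim probes, slide or session as a block, sex, age or class as covariates and leaving out each reference sample. A fixed block for slide, removal of dim values, session means and the Aurora-2 probe were added after seeing the data.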

Additional observations from a re-analysis of the deposited data

Results flagged for a closer look

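Of 26 groups of 4 to 7 undifferentiated tumors (14 probes, reference and predicted, where enough values were present), 2 held a tumor far from the rest by Dixon's ratio, and chance alone marks about 1 in 20 such groups. For PLK1, T57 had 10.04 in the undifferentiated reference samples, 1 of 4 values, while the nearest was 9.03. With the dimmest NEK2 probe, LM0 had 7.38, while the nearest of the other 4 was 6.42. LM0 was also the highest reference sample with both of the other NEK2 probes. The difference between the sexes, or between other groups, in the change from differentiated to undifferentiated tumors was not tested.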

How the results depend on the processing

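The count of 12 mitotic probes called between the reference samples stayed within a factor of 1.5 (9 to 13) under all 12 planned settings and when each of the 18 reference samples was left out. SAM gave 10, beside 2.52% of all probes. An adjusted p under 0.05 in place of 0.01 raised the count to 13, names alone gave 10 of 12 probes and the Aurora-2 probe 13 of 15. The share of all probes called moved as well. At the limit of 0.01 it ran from 0.695% (session as a block) to 2.68% (filter on dim probes) over the planned limma settings. With 1 sample left out it was 1.19% (LM0) to 2.55% (T57). The count of 15 partner genes stayed at 11 to 16. Slide as a fixed block, chosen after seeing the data, lowered these counts to 2 and 0; only 2 slides hold both classes, so that this fit uses fewer samples. No probe changed direction in any setting. Over all single probes the threshold was lost 9 times and gained 4 times under the planned settings that kept every sample, and lost 17 times and gained 1 time with 1 sample left out; the second AURKB probe lost it in 16 of 29 settings, and the cause was not tested. Normexp lowered the change of every mitotic probe, such as MAD2L1 from 2.02 to 1.51 and AURKA (brighter probe) from 1.85 to 1.35, and ended the calls of INCENP (0.95), the second AURKB probe (0.88) and the dimmest NEK2 probe (0.95). The counts of 0 for sex, age and breed did not change in any of their 4 settings. The median correlation of 0.52 stayed between 0.47 (26 predicted tumors) and 0.65 (13 reference tumors). Without LM0, whose class rests on elimination, 10 probes were called. Dim levels, not well above background in some differentiated tumors for NEK2 and TTK, limit how well the lowest values can be told apart.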
